A study of Mus musculus with 24 samples.

Results

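C2C12 cells, a mouse myoblast line that can be driven to form muscle fibres in culture, were compared in differentiation medium (DM) and growth medium (GM) after transduction with the pSuperR vector carrying a short hairpin RNA (shRNA) against p68. Ddx5 is the gene of p68, an RNA helicase of the DEAD-box family. The arrays were chosen by their titles: every array of p68 shRNA cells was taken, which gave 12 of the 24 arrays of the series. On each of 2 array designs, named MA and MB in the titles, 3 DM arrays were set against 3 GM arrays, and the designs were tested apart. The other 12 arrays came from the same line carrying the empty pSuperR vector, in the same media, with 3 arrays in each medium and design. They show where the response of the shRNA cells differed. They also entered the fit of each design, so the filter on low signal and the spread behind the shRNA p-values rest on them too. All groups therefore share the cell line and the vector backbone. The labels name 1 p68 shRNA and no second hairpin, and give no hours in DM. Nothing in them says that replicates came from separate cultures, so a p-value here reflects no more than how far arrays of a group scattered, and that scatter may be technical.

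Myoblasts that leave the cell cycle in low-serum medium switch on the transcription factor myogenin, then the proteins of the sarcomere, and fuse into multinucleated myotubes. MyoD and myogenin bind E-boxes in the regulatory DNA of muscle genes and act together with MEF2 factors, while Id proteins keep them from DNA by binding their E-protein partners. The helicase p68 and its relative p72, encoded by Ddx17, are known as coactivators of MyoD and as parts of RNA processing complexes. The comparison asks which parts of this programme respond to DM when p68 is targeted.

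The values are signals, the array intensity of a probe set on a linear scale that the authors had already set to the same trimmed mean on every array. Each array's signals correlated with those of its own group at 0.979 to 0.982 for the MA shRNA arrays and at 0.850 to 0.886 for the MB shRNA arrays. Among the vector arrays, those in DM were lower, at 0.951 to 0.968 on MA and 0.825 to 0.843 on MB, and those in GM were at 0.980 to 0.983 and 0.873 to 0.879. Vector DM replicate 2 on MB had 9.03% of probe sets under the pseudocount of 15, against 15.62% to 19.95% on the other MB arrays. The log2 ratio of 3' to 5' control signal was 0.0836 to 0.127 on the vector GM arrays of MB. On the other MB arrays it was at most 0.0251. On MA it was 0.03385 to 0.108 on the vector GM arrays and -0.0837 to 0.0389 on the others. The part of these differences in the comparisons with vector cells was not tested. The median residual SD on the log2 scale was 0.214 on MA and 0.523 on MB. The number of arrays limits the precision, and more so on MB. The targeted gene, Ddx5, was still detected in the libraries labelled as shRNA. Its brightest probe set read 351, 388 and 376.5 in GM and 373, 302.5 and 302.5 in DM with the shRNA, against 483, 420.4 and 489 in GM and 673.5, 541 and 408 in DM with the vector, so the shRNA arrays lay below the vector arrays in both media. Of 6 Ddx5 probe sets, 2 in GM and 1 in DM separated the constructs in that way, and the others overlapped. The share of all probe sets that separated the constructs so was not taken, so these counts are no test of the knockdown. Between the media, Ddx5 in shRNA cells changed by -0.19 ± 0.15 (log2 difference with its standard error, adjusted p = 0.385) and Ddx17 by -0.13 ± 0.09 (adjusted p = 0.323), neither past the threshold; 1 of the other Ddx5 probe sets fell by 0.92 (adjusted p = 0.0402) and the other Ddx17 probe set fell by 0.39 (adjusted p = 0.0238).

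The response of the shRNA cells to DM was broad on MA. A total of 2349 probe sets rose, which is 16.3% of the 14367 tested, and 2520 fell, which is 17.5% (limma, Benjamini-Hochberg adjusted p under 0.05). The largest changes were rises: 176 probe sets rose at least 4-fold and 47 fell that far, and 44 rose at least 16-fold against 1 that fell. That 1 was a probe set of Masp1, a secreted protease of the complement system named after its values were seen, which fell by 4.02. The brightest of its 5 probe sets, at 475, 415 and 424.5 in GM and 94.4, 118.5 and 117 in DM, fell by 1.86, another fell by 1.35, and the remaining 2 did not pass. On MB, 439 probe sets rose (2.27% of 19303) and 497 fell (2.57%). The MB falls dropped to 320 without DM shRNA replicate 1 and to 292 without GM shRNA replicate 1. On MA the DM and GM arrays did not overlap for 99.1% of the rises and 98.2% of the falls. Over all 14367 tested MA probe sets, the DM arrays lay wholly above in 3599 and wholly below in 3674. The largest rises and falls named below were chosen among genes without overlap, so their separation was set by that rule and adds no support. Taking 1 probe set per gene on MA, 1399 genes rose (16.2% of 8639) and 1635 fell (18.9%); these shares are the background for the gene lists below. In bulk RNA, fewer cells that respond and less RNA per responding cell cannot be told apart. The median log2 change over all 8639 genes was -0.02.

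**Figure D1:**
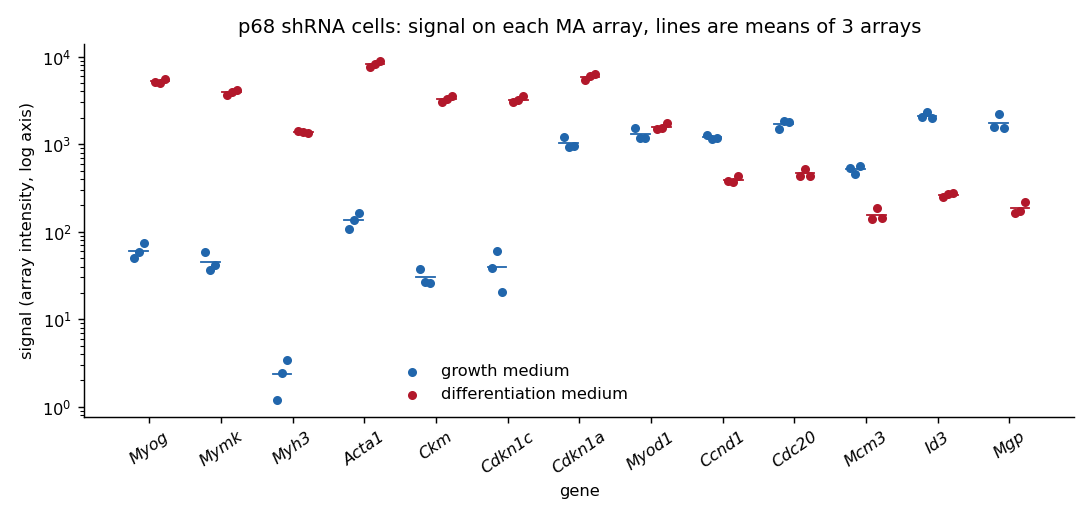
Signal on each MA array of p68 shRNA cells (vertical log axis, array intensity) for 13 genes on the horizontal axis, with blue points for GM, red points for DM and a line at each mean of 3 arrays. Myog, Mymk, Myh3, Acta1, Ckm and Cdkn1c sit at least 10-fold higher on every DM array than on any GM array, Ccnd1, Cdc20, Mcm3, Id3 and Mgp sit lower on every DM array, and Myod1 overlaps.

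The factors that start the muscle programme responded unevenly. Myog, which encodes myogenin, read 49.7, 58.03 and 75.1 on the GM arrays and 5076, 4977 and 5613 on the DM arrays. All DM arrays lay far above all GM arrays, and the log2 change was 6.12 ± 0.17 (adjusted p = 2.60e-12), on the log2(signal + 15) scale with its standard error, as are all changes below. Myod1, the upstream factor that commits cells to the myoblast fate, read 1544, 1170 and 1163 in GM and 1485, 1526 and 1734 in DM. These groups overlapped, and the change of 0.30 ± 0.13 missed the threshold (adjusted p = 0.0991), although without GM shRNA replicate 2 it was 0.43 with an adjusted p of 0.0255 and with quantile normalisation 0.33 with 0.0439. Myf5, the related factor of proliferating myoblasts, changed by -0.12 ± 0.21 (adjusted p = 0.706; named after its values were seen).

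Cofactors of myogenin rose with it. Mef2a, a MADS-box partner of the myogenic factors, went from 91.0, 83.8 and 78.2 to 1007, 786 and 823, a rise of 3.15 ± 0.15. Tead4, which binds MCAT elements of muscle genes, went from 34.4, 7.845 and 24.1 to 266, 296 and 363, a rise of 3.18 ± 0.24. The groups were far apart for both. Mef2c was dim, at 2.45, 1.195 and 3.30 in GM and 36.6, 33.6 and 20.15 in DM, and rose by 1.36 ± 0.29 (adjusted p = 0.00208); 2 more of its 5 tested probe sets passed, while the remaining ones changed by 0.29 and 0.30 without passing. Of 15 tested myogenic transcription factors, 9 rose, none fell and 6 did not pass, with a median change of 0.52.

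Inhibitors of these factors split in both directions. Of 17 tested, 7 fell, 4 rose and 6 did not pass, with a median of -0.18. Id3, which traps the E-protein partners of MyoD, fell from 2058, 2309 and 2004 to 248, 266 and 277, a change of -2.94 ± 0.10 (adjusted p = 3.89e-11), and its groups did not overlap. Zeb1, a zinc finger repressor that competes at E-boxes, moved the other way, from 259, 232 and 211 to 1051, 1007 and 1038, a rise of 2.08 ± 0.12. Hey1, a Notch effector, rose by 1.55 ± 0.16. Hes6, which the list also holds although it is known to oppose Hes1 and to favour muscle differentiation, rose by 1.65 ± 0.11.

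Genes of the contractile apparatus gave the largest changes. Every one of the 13 tested thick filament genes rose, with a median change of 4.55. Of 16 thin filament genes, 14 rose with a list median of 4.11, and of 20 Z-disc and titin genes 18 rose with a median of 1.83. Members that read below the filter level in GM entered the test through their DM arrays, so these counts describe the members only. Mybph, a myosin binding protein, went from 25.8, 10.8 and 5.28 in GM to 5235, 5552 and 5905 in DM, a rise of 7.65 ± 0.35. Myl1, a myosin light chain, went from 9.70, 2.85 and 9.08 to 3810, 4221 and 4590, a rise of 7.58 ± 0.21. Both read below the filter level of 30 on every GM array and were among the brightest of these genes on every DM array.

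Myh3, the embryonic myosin heavy chain, read 1.21, 2.40 and 3.43 in GM and 1416, 1370 and 1338 in DM and rose by 6.33 ± 0.11 (adjusted p = 4.52e-14). The perinatal heavy chain Myh8, named after its values were seen, reached 47.6, 58.2 and 53.2 in DM from 9.53, 16.8 and 9.155 in GM, a rise of 1.35 ± 0.17. The 2 groups of arrays stood apart for both genes. Mylpf, the fast regulatory light chain, went from 45.7, 50.6 and 50.6 to 4694, 4819 and 5136, a rise of 6.26 ± 0.13.

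On the thin filament, troponins of both fibre types rose together. The fast troponin I Tnni2 went from 2.74, 10.25 and 3.815 to 2519, 2644 and 2670, a rise of 7.01 ± 0.16, and its second probe set rose by 4.61. The slow troponin I Tnni1 went from 39.3, 69.6 and 38.95 to 5434, 5795 and 6141, a rise of 6.53 ± 0.18. Tnnc2, the fast troponin C, rose by 6.74 ± 0.18, and Tnnt2, the cardiac-type troponin T of developing muscle, by 4.08 ± 0.14. The sarcomeric actins were bright in DM: Actc1, the cardiac form, went from 58.95, 83.6 and 78.8 to 6719, 6906 and 7255, a rise of 6.31 ± 0.21. Acta1, the skeletal form, went from 107, 135 and 163 to 7562, 8300 and 8942, a rise of 5.80 ± 0.20. The DM arrays lay above the GM arrays without overlap for each of these genes. One member moved against its list: Tpm3, a tropomyosin gene with muscle and non-muscle products, fell from 2318, 2383 and 1685 to 993, 1140 and 1142, a change of -0.94 ± 0.14 (adjusted p = 0.000118). Of its 5 tested probe sets 3 fell and the other 2 rose, by 0.56 and 0.61, so the direction differs between its probe sets. Tnnt2, Acta1 and Tpm3 were named after their values were seen.

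At the Z-disc, Ttn, the giant spring protein titin, went from a mean of 9.27 ± 4.42 (SD, n = 3) to 418 ± 80.7 (SD, n = 3), a rise of 4.16 ± 0.27. Actn2, which crosslinks the thin filaments there, went from 4.09, 3.565 and 5.10 to 536, 487 and 576, a rise of 4.83 ± 0.14. Ankrd2, a stretch-responsive titin-binding protein, rose by 5.64 ± 0.22, and Pdlim3, an actinin-binding LIM protein, by 3.73 ± 0.16. Des, the intermediate filament desmin that myoblasts already make, rose by 1.02 ± 0.16 on its brighter probe set and by 0.19 without passing on the other.

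The MB design added genes of the same kind. Lmod3, which nucleates the thin filament, went from 4.89, 12.3 and 10.7 to 1952, 1662 and 1782, a rise of 6.23 ± 0.27. Klhl41, needed for sarcomere assembly, went from 50.5, 37.6 and 35.8 to 2923, 3353 and 2945, a rise of 5.79 ± 0.32, and Ankrd23, a relative of Ankrd2, rose by 5.76 ± 0.22. Nmrk2, a muscle nicotinamide riboside kinase, and Pgm5, a phosphoglucomutase relative of cell junctions, rose by 6.10 ± 0.23 and 5.70 ± 0.28. The DM arrays stood above the GM arrays for all of these, which the rule that chose them required.

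The RefSeq promoter windows of the mouse build GRCm38.p6, which run from 250 bases before to 50 bases after an annotated start site, held muscle motifs more often in the 3 sarcomere lists than in the whole table. Of 64 sarcomere genes, 51 had a window, with 63 windows in all. The E-box CAGCTG, a form of CANNTG, was present in 38.1% of them against 16.3% of all 32851 windows. The MEF2 consensus was present in 17.5% against 3.19%, and CANNTG itself in 82.5% against 72.3%. Both strands were searched, and a match describes letters and shows no binding. The windows of Myog and Klhl41 are shown because these genes are among the largest rises of their designs; capitals mark matches to CANNTG and to the MEF2 consensus. The Myog window lies at chr1:134289754-134290053 on the plus strand and holds 2 matches, both to CANNTG. Its stretch ctatatttat differs from the MEF2 pattern searched here only at the last base and is therefore not marked. The Klhl41 window lies at chr2:69669870-69670169 on the plus strand and holds 5 matches, of which the longest is the MEF2 consensus.
Myog: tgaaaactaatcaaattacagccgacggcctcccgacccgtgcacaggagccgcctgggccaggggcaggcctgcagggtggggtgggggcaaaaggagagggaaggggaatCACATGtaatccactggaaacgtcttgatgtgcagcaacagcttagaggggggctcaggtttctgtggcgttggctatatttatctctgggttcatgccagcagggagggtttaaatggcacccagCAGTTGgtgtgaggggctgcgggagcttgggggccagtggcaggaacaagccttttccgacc
Klhl41: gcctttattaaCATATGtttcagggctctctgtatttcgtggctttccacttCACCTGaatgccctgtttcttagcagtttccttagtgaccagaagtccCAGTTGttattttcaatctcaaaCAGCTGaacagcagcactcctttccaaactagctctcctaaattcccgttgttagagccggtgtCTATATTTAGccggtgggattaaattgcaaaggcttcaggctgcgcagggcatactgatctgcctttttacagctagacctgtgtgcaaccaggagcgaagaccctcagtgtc

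Membrane systems of the fibre followed the sarcomere. Of 15 tested genes of excitation-contraction coupling, 12 rose, none fell and 3 did not pass, with a median of 1.92. Over all genes 16.2% rose and 18.9% fell. Members below the filter level in GM, such as Cacna1s, Ryr1, Casq2 and Cav3, entered the test through their DM arrays. The counts here therefore describe the members only. The same holds for the myogenic factor list above and for the junction, fusion and energy lists below. Casq2, a calcium store of the sarcoplasmic reticulum, went from 14.3, 22.1 and 15.75 to 1624, 1678 and 1371, a rise of 5.60 ± 0.15. The reticulum calcium pump Atp2a1 rose by 4.71 ± 0.15, the calcium release channel Ryr1 by 4.23 ± 0.23, and its voltage sensor Cacna1s by 3.59 ± 0.14. Of 10 dystrophin complex and sarcolemma genes, 9 rose, with a median of 1.45, led by Cav3, the muscle caveolin, at 4.33 ± 0.17. Dag1, which encodes dystroglycan, rose by 2.13 ± 0.12, Dtna, a dystrobrevin, by 2.40 ± 0.23 on its brightest probe set, and the laminin receptor Itga7 by 1.80 ± 0.12.

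Of 10 neuromuscular junction genes, 6 rose, 1 fell and 3 did not pass, with a median of 0.78. The fetal acetylcholine receptor subunit Chrng went from 60.9, 105 and 52.2 to 1575, 1535 and 1908, a rise of 4.31 ± 0.20. The other subunits rose too, Chrnd by 2.91 ± 0.19, Chrnb1 by 2.12 ± 0.18 and Chrna1 by 1.14 ± 0.11; Chrnd read below the pseudocount in GM, which holds down its change on this scale. The member that fell was Lrp4, the agrin receptor, named after its values were seen, at -0.91 ± 0.14 (adjusted p = 0.00018).

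Both dedicated fusion proteins were among the largest rises. Mymk, which encodes the fusogen myomaker, went from 58.5, 36.5 and 41.55 in GM to 3680, 3979 and 4125 in DM on MA, a rise of 6.04 ± 0.19 (adjusted p = 1.16e-11). Mymx, its partner micropeptide, went from 42.55, 40.99 and 70.2 to 3991, 5936 and 4893 on MB, a rise of 6.23 ± 0.25 (adjusted p = 6.67e-12). Every DM array of either gene lay above every GM array. Itgb1bp2, the muscle protein melusin, rose by 5.92 ± 0.25, Bin1, which shapes membrane tubules, by 1.96 ± 0.11, and the integrin subunit Itga3 fell, at -1.74 ± 0.17. Of 20 tested adhesion and fusion genes, 8 rose, 4 fell and 8 did not pass, with a median of 0.34. Without GM shRNA replicate 2 the falls were 2.

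Energy genes specific to muscle rose, while the glycogen and glycolysis list had a median near 0. Ckm, the muscle creatine kinase, went from 37.9, 26.9 and 25.9 to 3068, 3249 and 3529, a rise of 6.20 ± 0.14 (adjusted p = 2.46e-13). Mb, the oxygen store myoglobin, went from 4.05, 34.5 and 18.98 to 5163, 5903 and 5227, a rise of 7.42 ± 0.28. These arrays did not overlap between media. A Ckm probe set on MB changed by 0.35 without passing (adjusted p = 0.62). The muscle isoforms of cytochrome c oxidase subunits, Cox6a2 and Cox8b, rose by 4.31 ± 0.19 and 4.03 ± 0.22. Of 14 genes of energy buffers and oxygen, 8 rose and 2 fell, with a median of 1.12; the larger fall was Lpl, a lipoprotein lipase, at -1.72 ± 0.17. Of 23 glycogen and glycolysis genes, 8 rose, 5 fell and 10 did not pass, with a median of 0.03. The muscle glycogen phosphorylase Pygm and the muscle phosphoglycerate mutase Pgam2 rose by 3.82 ± 0.22 and 4.45 ± 0.15, and the muscle phosphofructokinase Pfkm by 1.69 ± 0.12, whereas Hk2, a hexokinase named after its values were seen, changed by 0.40 ± 0.15 and lay at the threshold (adjusted p = 0.0505). Hk2 passed, with adjusted p of 0.0383 to 0.0481, without DM shRNA replicate 2, GM shRNA replicate 4, DM vector replicate 1 or 3 or GM vector replicate 3, and also with a signal of at least 100 required (0.0392) or quantile normalisation (0.0478). Oxidative phosphorylation shifted little: 13 of 35 subunits rose and none fell, with a median of 0.23, and with the median over a gene's probe sets the rises were 6. In that setting a gene's change and adjusted p are each the median over its probe sets, and no new test is run. Uqcrfs1, the Rieske subunit, went from 923, 978 and 828 to 1539, 1652 and 1789, a rise of 0.86 ± 0.11. Pdk4, the kinase that shuts pyruvate dehydrogenase, fell by 1.65 and was named after its values were seen.

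**Figure D2:**
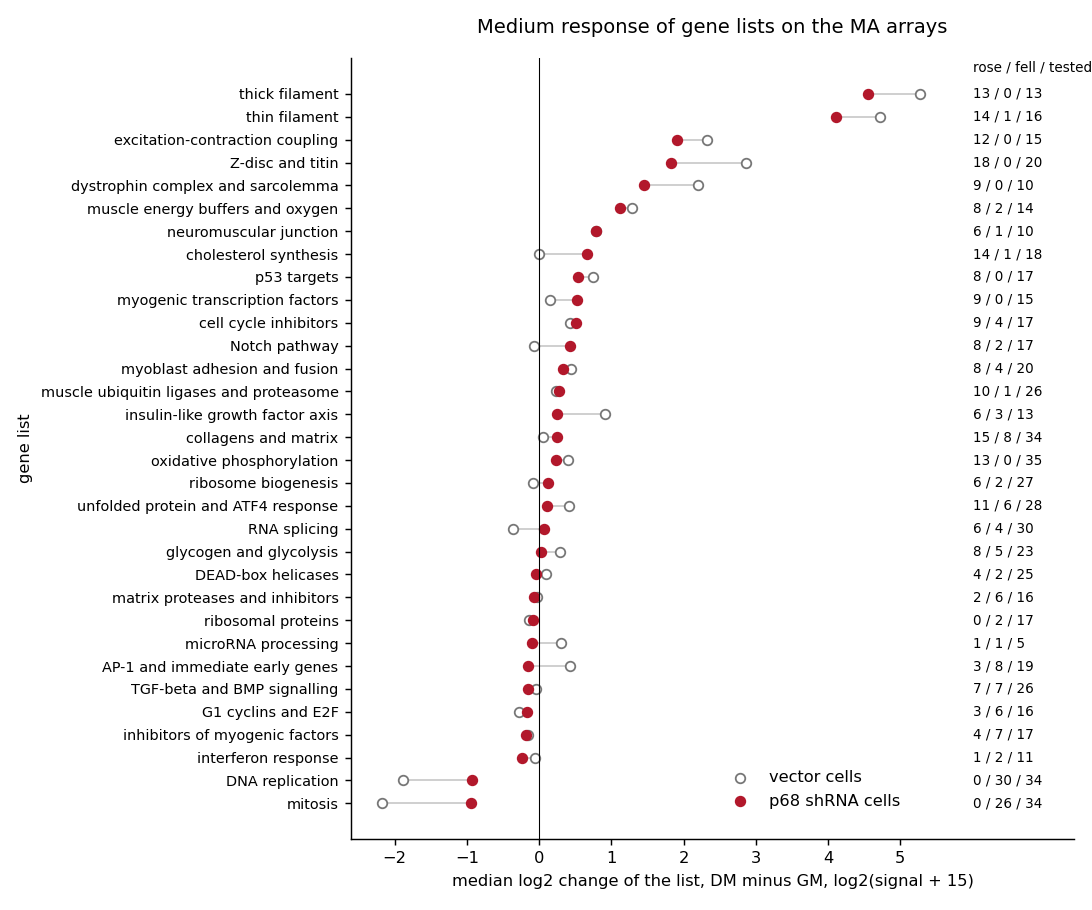
Median log2 change from GM to DM of each gene list on MA (horizontal axis), for p68 shRNA cells (red) and vector cells (open), with the number of genes that rose, fell and were tested in shRNA cells at the right. The 3 sarcomere lists have shRNA medians of 1.83 to 4.55, and DNA replication and mitosis have medians of -0.93 and -0.94 in shRNA cells against -1.88 and -2.17 in vector cells.

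Genes of the dividing cell fell together, but by less than the muscle genes rose. Of 34 tested DNA replication genes, 30 fell and none rose, with a median of -0.93. Mcm3, a subunit of the replicative helicase, went from 534, 451 and 558 to 139, 187 and 143, a change of -1.63 ± 0.14 (adjusted p = 3.89e-07). Cdc6, which loads that helicase, went from 146.5, 142 and 132 to 33.3, 13.03 and 22.3, a change of -2.07 ± 0.20. Tk1, the thymidine kinase of S phase, went from 1259, 1246 and 1632 to 385, 443 and 373, a change of -1.74 ± 0.15. The DM arrays lay below the GM arrays for all 3 genes, yet Mcm3 and Tk1 kept signals above 100 in DM.

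Of 34 mitosis genes, 26 fell, none rose and 8 did not pass, with a median of -0.94. Cdc20, the activator of the anaphase promoting complex, went from 1476, 1834 and 1809 to 435, 519.5 and 433, a change of -1.85 ± 0.12 (adjusted p = 2.72e-08). The mitotic kinase Plk1 went from 703, 650.2 and 629 to 195, 225 and 236, a change of -1.53 ± 0.13. The kinesin Kif2c fell, at -2.07 ± 0.13 on its brightest probe set and -0.04 without passing on another, as did the centromeric histone Cenpa, at -1.62 ± 0.18. Mki67, the widely used proliferation marker, read 195, 202 and 185 in GM and 202.5, 118 and 159 in DM; the groups overlapped, and the change of -0.29 ± 0.19 did not pass (adjusted p = 0.271; named after its values were seen).

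The windows of these lists held other motifs. TTTGAA, the core of the cell cycle homology region, was present in 78.1% of 32 mitosis windows and 17.9% of all windows, and CCAAT in 84.4% against 37.4%. The E2F motif TTTNNCGC was present in 36.1% of 36 DNA replication windows against 5.17%. CCAAT was not particular to lists that fell. It was present in 84.2% of 19 windows of cholesterol synthesis, a list that mostly rose, and in 55.6% of the DNA replication windows. Both strands were searched here too. The window of Cdc20 is shown for its pair of neighbouring motifs and that of Mcm3 for its E2F motif, as representatives of the genes that fell; capitals mark TTTGAA and CCAAT in Cdc20, and TTTNNCGC and CCAAT in Mcm3, on either strand. The Cdc20 window lies at chr4:118437294-118437593 on the minus strand with 3 matches, and the Mcm3 window at chr1:20820263-20820562 on the minus strand with 5.
Cdc20: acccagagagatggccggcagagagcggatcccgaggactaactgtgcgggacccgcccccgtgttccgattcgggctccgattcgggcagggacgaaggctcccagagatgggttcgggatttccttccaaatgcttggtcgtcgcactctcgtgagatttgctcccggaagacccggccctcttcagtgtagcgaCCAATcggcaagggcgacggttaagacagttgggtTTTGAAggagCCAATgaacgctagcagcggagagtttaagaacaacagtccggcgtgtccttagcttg
Mcm3: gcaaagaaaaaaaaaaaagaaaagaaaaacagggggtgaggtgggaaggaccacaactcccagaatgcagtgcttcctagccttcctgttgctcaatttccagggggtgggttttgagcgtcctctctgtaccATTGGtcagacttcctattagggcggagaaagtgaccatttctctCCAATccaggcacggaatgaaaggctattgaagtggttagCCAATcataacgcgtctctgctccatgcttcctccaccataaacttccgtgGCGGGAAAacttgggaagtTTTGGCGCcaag

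Regulators of G1 moved in both directions. Ccnd1, the cyclin D1 that drives the myoblast cell cycle, went from 1271, 1138 and 1172 to 376, 368 and 430.2, a change of -1.57 ± 0.15 (adjusted p = 1.52e-06). Ccnd3, the D-type cyclin of differentiated muscle, rose from 722, 740.1 and 696 to 1720, 1947 and 2111, a change of 1.40 ± 0.14. Neither gene's groups overlapped. Of 16 G1 cyclin and E2F genes 6 fell and 3 rose, the latter only 1 without DM shRNA replicate 2. Among inhibitors of the cycle, 9 of 17 rose and 4 fell, with a median of 0.51. Cdkn1a, which encodes the kinase inhibitor p21, went from 1207, 919 and 953 to 5379, 6090 and 6328, a rise of 2.52 ± 0.16 (adjusted p = 1.79e-08). Cdkn1c, its relative p57, went from 38.7, 60.5 and 20.6 to 3029, 3159 and 3522, a rise of 5.95 ± 0.21. Rb1, the retinoblastoma protein that holds E2F factors, rose by 2.24 ± 0.24. All DM arrays lay above the GM arrays for these inhibitors.

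Signalling genes showed smaller and mixed changes. Of 17 Notch pathway genes 8 rose and 2 fell, with a median of 0.43; the falls were 1 without any of DM shRNA replicates 1, 2 and 3 or GM shRNA replicates 3 and 4. The receptor Notch1 went from 148, 167.5 and 152 to 683, 782 and 806, a rise of 2.17 ± 0.12, its ligand Dll1 rose by 1.71 ± 0.15, and the effector Heyl by 1.78 ± 0.15. In the insulin-like growth factor axis, 6 of 13 rose and 3 fell, with a median of 0.25. Igf2, an autocrine growth factor of differentiating myoblasts, went from 160.2, 166.5 and 213 to 719, 772 and 872, a rise of 2.05 ± 0.27. The binding proteins diverged: Igfbp3 rose by 2.02 ± 0.21 and Igfbp2 fell, at -1.81 ± 0.11. Of 26 genes of TGF-beta and BMP signalling 7 rose and 7 fell, the falls being 4 with the median over a gene's probe sets. Fst, the activin and myostatin antagonist follistatin, rose by 2.48 ± 0.18, while the ligand Bmp4 and the BMP antagonist Grem1 fell, at -2.08 ± 0.18 and -2.32 ± 0.21. Of 19 AP-1 and immediate early genes, 8 fell and 3 rose; without GM shRNA replicate 2 the falls were 5, and with a signal of at least 100 required they were 4. Fosl1, a Fos-family subunit of growing cells, fell from 242, 214 and 254 to 14.8, 6.33 and 26.2, a change of -3.08 ± 0.25.

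Among genes given by their brightest probe set, with a mean signal of at least 150 in the higher medium, the largest falls on MA included several secreted and surface proteins. Mgp, an inhibitor of matrix calcification, went from 1569, 2212 and 1513 to 163.5, 172 and 218, a change of -3.15 ± 0.16. Sfrp2, a secreted modulator of Wnt signalling, went from 2680, 2133 and 2777 to 292, 301 and 311, a change of -2.998 ± 0.13. Groups without overlap were a condition for choosing both. The water channels Aqp1 and Aqp5 fell, at -2.81 ± 0.12 and -2.61 ± 0.14, as did the tetraspanin Tspan4 at -2.59 ± 0.14, the surface protein Tm4sf1 at -2.52 ± 0.10 and the potassium channel Kcnn4 at -2.44 ± 0.27. Tinagl1, a matricellular protein, and Klhdc8a fell, at -2.76 ± 0.25 and -2.35 ± 0.27. On MB the largest falls under the same limit were Dynap, from 5800, 5449 and 5323 to 361, 483 and 459.8 (-3.63 ± 0.15), the glutamate transporter Slc1a3 (-3.58 ± 0.31), the efflux transporter Abcc4 (-3.25 ± 0.39), Trnp1 (-3.003 ± 0.36), the transglutaminase Tgm5 (-2.96 ± 0.40) and the collagen gene Col8a2 (-2.90 ± 0.26). A further probe set of Slc1a3 and of Trnp1 did not pass and had the opposite sign. Among collagens and other matrix genes 15 of 34 rose and 8 fell, the falls being 5 with the median over a gene's probe sets. Col1a1, a chain of type I collagen named after its values were seen, rose by 1.65 ± 0.16, Postn, the matricellular periostin, by 2.05 ± 0.29, and the crosslinking enzyme Lox fell, at -2.11 ± 0.12. Of 16 matrix proteases and inhibitors, 6 fell, among them the urokinase receptor Plaur at -1.70 ± 0.15 and the metalloproteinase inhibitor Timp1 at -1.62 ± 0.12. Another secreted protein, the hormone Fgf21, rose from 6.89, 24.6 and 19.9 to 2804, 2715 and 3242, a change of 6.55 ± 0.30.

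Genes of cholesterol synthesis rose in the shRNA cells. Of 18 tested, 14 rose, 1 fell and 3 did not pass, with a median of 0.67; the single fall was lost without DM shRNA replicate 1 or GM shRNA replicate 3. Msmo1, a sterol demethylase of the late pathway, went from 242, 346 and 239 to 1427, 1449 and 1047, a rise of 2.19 ± 0.21. Idi1, the isopentenyl isomerase, went from 104, 88.9 and 135 to 539, 304 and 349, a rise of 1.70 ± 0.28, and Mvd, the mevalonate decarboxylase, rose by 1.07 ± 0.17. DM and GM arrays did not overlap for any of these enzymes.

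Stress and RNA genes changed in part. Over all genes 16.2% rose and 18.9% fell, and the counts of the splicing, DEAD-box and ribosome biogenesis lists below are close to or under these shares. Those counts therefore describe single members and no response of the lists. Of 28 genes of the unfolded protein and ATF4 response, 11 rose and 6 fell, with a median of 0.11. Those that rose included targets of ATF4, the transcription factor of the amino acid response, such as Chac1 at 1.96 ± 0.14 and Trib3 at 1.93 ± 0.21; chaperones and folding enzymes were among those that fell, such as Pdia6 at -1.10 and Creld2 at -1.14, both named after their values were seen. Of 17 p53 targets 8 rose and none fell, with a median of 0.53, led by Cdkn1a and by Gadd45a, a growth arrest gene, at 1.88 ± 0.20; Cdkn1a also stands in the list of cell cycle inhibitors. Of 30 splicing genes 6 rose and 4 fell, the falls being 1 without DM shRNA replicate 3, 2 without DM shRNA replicate 2 or GM shRNA replicate 4, and 1 with the median over a gene's probe sets. Rbm38, a splicing regulator of muscle differentiation, went from 73.97, 89.3 and 75.5 to 553, 632 and 758, a rise of 2.80 ± 0.18, and Ptbp1, a repressor of muscle exons, went from 1526, 1312 and 1513 to 636, 669 and 706, a change of -1.09 ± 0.13 on the brighter of its probe sets and 0.18 without passing on the other. Of 25 DEAD-box helicases 4 rose and 2 fell, with a median of -0.05; the rises were 2 without DM shRNA replicate 1 or 2 or GM shRNA replicate 2 or 3, and the falls were 1 without DM shRNA replicate 2 or 3 or GM shRNA replicate 2 or 3. Eif4a2, a translation initiation helicase, rose by 1.07 ± 0.20. Of 27 ribosome biogenesis genes 6 rose, only 3 without GM shRNA replicate 3, and 2 fell, only 1 without DM shRNA replicate 1 or GM shRNA replicate 3.

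Markers of the labelled cell type were present: all 8 myoblast markers passed the filter on low signal, and their summed signal was 4264 to 4709 on the GM and 7778 to 8914 on the DM shRNA arrays. All summed signals in this part cover every listed marker on the MA array, also those below the filter. Pax7, the satellite cell factor, rose from 97.7, 126 and 119 to 176, 176 and 158.5, a change of 0.52 ± 0.14 (adjusted p = 0.0087), while Pax3 did not pass the filter. Of 10 smooth muscle markers, Myh11 and Myocd did not pass the filter. Of the 8 tested, 3 fell, among them the actin-binding proteins Tagln at -1.71 ± 0.15 and Cnn1 at -2.13 ± 0.18, and 3 rose, only 1 with the median over a gene's probe sets; the summed signal was 9363 to 12100 in GM and 11610 to 14330 in DM. Of 5 tested adipocyte markers 4 fell, and the defining markers Adipoq, Fabp4 and Lep did not pass the filter. The signal summed over all 8 on the array was 849.5 to 983.5 in GM and 307.8 to 318.5 in DM, against 428.8 to 482.5 and 269.3 to 384.2 in vector cells. Plin4, a lipid droplet protein, went from 342, 319 and 306 to 34.4, 40.7 and 18.8, a change of -2.90 ± 0.23. The part of adipocyte-like expression in the other falls was not tested. Of 10 macrophage markers on MA 5 passed the filter, and Ptprc, Itgam, Tyrobp, Aif1 and Fcer1g were below it. The signal summed over all 10 was 308.3 to 384.7 in GM and 267.5 to 332.5 in DM. The lipopolysaccharide receptor Cd14 fell by 0.70 (adjusted p = 0.0123), a call lost without GM shRNA replicate 3. The 4 others did not pass the test. Of 7 endothelial markers only Kdr passed the filter, and it changed by 0.01 (adjusted p = 0.967); the summed signal was 88.19 to 103.7 in GM and 84.41 to 100 in DM. Of 6 neuron markers only the tubulin Tubb3 passed it on MA and fell by 0.55 (adjusted p = 0.0292), a call lost without DM shRNA replicate 1 or 2 or GM shRNA replicate 3 or 4 or with no filter on low signal. The summed neuron signal was 86.72 to 128 in GM and 69.65 to 71.04 in DM, and on MB 4 of 5 neuron markers were tested and none passed. Of 7 osteoblast and cartilage markers on MA 3 passed the filter, and Alpl, Ibsp, Col2a1 and Col10a1 were below it. The signal summed over all 7 was 271.7 to 342.4 in GM and 196.5 to 206.7 in DM. The cartilage factor Sox9 fell by 1.24 (adjusted p = 0.000127) on MA and changed by 0.92 on MB without passing (adjusted p = 0.358). Cd14, Kdr, Tubb3 and Sox9 were named after their values were seen, and the part of such cells in the other changes was not tested.

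**Figure D3:**
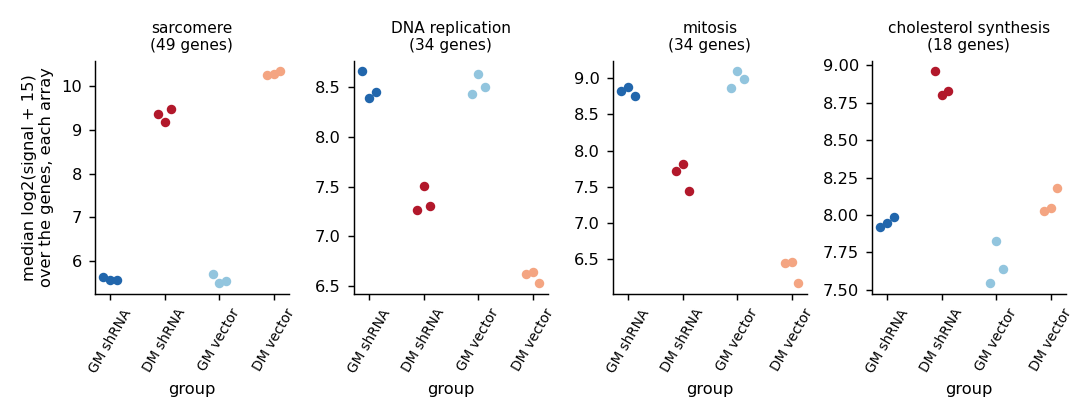
Median over the genes of a list of log2(signal + 15) on each MA array (vertical axis, a separate scale in each panel), 3 points for each of the 4 groups. In DM the shRNA arrays lie below the vector arrays for the sarcomere lists and above them for DNA replication, mitosis and cholesterol synthesis.

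Set against the vector cells, the response of the shRNA cells had the same direction for most genes and a smaller size for many. Of the 2349 probe sets that rose in shRNA cells on MA, 1879 (80.0%) also rose in vector cells, where 3429 rose in all, and the shared ones were 54.8% of these. Of the 2520 falls, 2095 (83.1%) were shared, which was 57.4% of the 3649 falls of vector cells. The difference between the responses, tested as the interaction of medium and shRNA, passed for 1430 probe sets (9.95%), 787 with a higher and 643 with a lower change in shRNA cells. Without DM shRNA replicate 2 these counts were 510 and 403. Among probe sets that rose in shRNA cells, the interaction was lower for 257 and higher for 106. Among those that fell, it was higher, meaning a shallower fall, for 439 and lower for 101. With 1 probe set per gene, the interaction passed for 10.6% of genes. Of the reversals, 23 probe sets rose in shRNA cells and fell in vector cells and 21 did the opposite.

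The sarcomere lists reached a lower level in DM with the shRNA. The median signal over their 49 tested genes was 35.1, 32.5 and 32.0 on the GM arrays and 650, 566 and 699.9 on the DM arrays of shRNA cells. In vector cells it was 36.9, 29.99 and 31.7 in GM and 1203, 1227 and 1282 in DM. The DM arrays of the constructs did not overlap, and the GM arrays did. On the shRNA DM arrays the median gene was Ankrd1, which is named below for its interaction. There the list level and the Ankrd1 signal are the same values. The interaction passed as lower for 4 of 13 thick filament, 4 of 16 thin filament and 9 of 20 Z-disc genes. Over all genes it passed for 10.6% in either direction. The thin filament count was 2 without DM shRNA replicate 1 or 2, DM vector replicate 2, or GM vector replicate 1 or 3. The interaction passed as higher for 1 member, the myosin light chain kinase Mylk2. That call was lost without any 1 of DM shRNA replicates 1, 2 and 3, GM shRNA replicates 2 and 4, DM vector replicates 1 and 2 and GM vector replicates 1 and 4. With a pseudocount of 50 the thick filament genes that passed as lower were 8. Actn2 rose by 4.83 ± 0.14 with the shRNA and by 6.64 ± 0.14 with the vector, an interaction of -1.81 ± 0.19 (adjusted p = 5.18e-05). Myh8 differed more, with a rise of 1.35 ± 0.17 against 3.62 ± 0.17 (-2.27 ± 0.24, adjusted p = 5.83e-05). For Myog the same difference was -0.07 ± 0.24 (adjusted p = 0.898), for Mymk -0.24 ± 0.27 (adjusted p = 0.66) and for Acta1 0.24 ± 0.28 (adjusted p = 0.66). None of these differences passed.

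**Figure D4:**
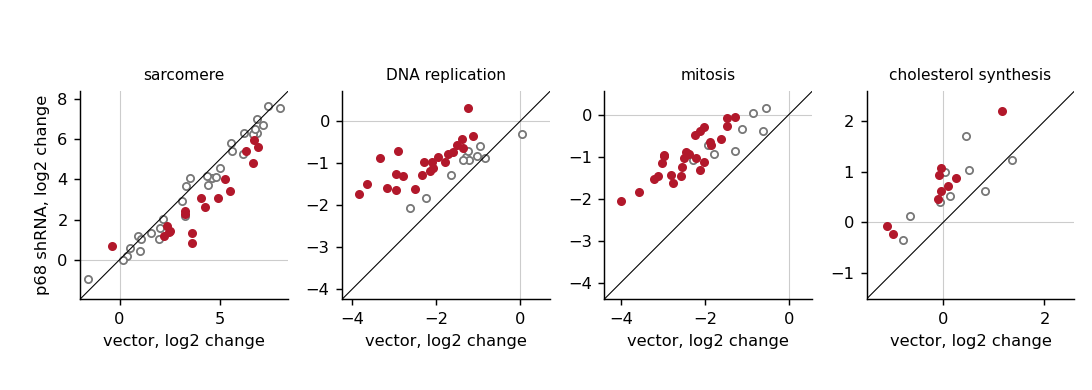
Log2 change from GM to DM in p68 shRNA cells (vertical) against vector cells (horizontal) on MA, 1 point per gene, filled where the interaction passed; the diagonal marks equal change. DNA replication and mitosis genes lie mostly above the diagonal, with interactions that passed as higher for 23 of 34 and 26 of 34 genes, and the sarcomere genes that passed lie below it except for 1.

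The cell cycle lists stayed higher in DM with the shRNA. For DNA replication the median signal over 34 genes was 390, 322 and 336 in GM and 139, 166 and 143 in DM of shRNA cells, and 332, 384 and 352 in GM and 83.6, 84.5 and 77.3 in DM of vector cells. For mitosis it was 437, 455 and 416 in GM and 196, 211 and 158 in DM of shRNA cells, and 451, 531 and 498 in GM and 72.3, 73.3 and 57.1 in DM of vector cells. In DM every shRNA array lay above every vector array for both lists, and in GM the levels of both lists overlapped. The interaction passed as higher for 23 of 34 replication and 26 of 34 mitosis genes and as lower for none, against 10.6% of all genes in either direction. Cdc20 changed by -1.85 ± 0.12 with the shRNA and -3.58 ± 0.12 with the vector (1.73 ± 0.17, adjusted p = 3.10e-05), and Ccnd1 by -1.57 ± 0.15 and -3.47 ± 0.15 (1.90 ± 0.21, adjusted p = 7.47e-05). Mki67, which did not pass in shRNA cells, fell by 2.03 in vector cells (1.75 ± 0.27, adjusted p = 0.00092). The kinase inhibitor genes Cdkn1a and Cdkn1c differed by 0.31 ± 0.22 and -0.21 ± 0.30 between the constructs, without passing. Shares of dividing cells were not measured, and their part in these differences was not tested.

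Cholesterol genes rose more with the shRNA. Their median signal over 18 genes was 227, 233 and 238 in GM and 485, 434 and 443 in DM of shRNA cells, against 173, 214 and 185 in GM and 259, 288 and 299.5 in DM of vector cells. The shRNA arrays lay above the vector arrays of the same medium in both media. The list median of the log2 change was 0.67 with the shRNA and 0.00 with the vector, where 4 genes rose and 4 fell. The interaction passed as higher for 9 of 18 genes and as lower for none, against 10.6% of all genes in either direction. That count was 3 without DM shRNA replicate 2, 5 without GM shRNA replicate 3 and 4 without GM vector replicate 3; it was also 4 with the median over a gene's probe sets and 5 with no trend in the spread. Mvd changed by 1.07 ± 0.17 against -0.04 ± 0.17 (1.11 ± 0.23, adjusted p = 0.00792). The unfolded protein and ATF4 list went the other way, with 8 of 28 genes lower in shRNA cells and none higher; the 8 were 5 without GM vector replicate 1 and 5 with the median over a gene's probe sets. Ddit3, the stress factor CHOP, named after its values were seen, read 187, 203 and 182.5 in GM and 204, 163 and 229 in DM with the shRNA, which overlapped, and 131, 89.3 and 109 and 599, 591 and 588 with the vector. Its interaction on MA was -2.26 ± 0.20 (adjusted p = 1.74e-05), while a Ddit3 probe set on MB had an interaction of -0.002 that did not pass.

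The genes with the largest interactions on MA, among those with a group mean of at least 150, follow with their 12 arrays. Col18a1, the collagen XVIII of basement membranes, rose in shRNA cells from 365, 370.3 and 315 to 525, 637 and 627 (0.74 ± 0.12) and fell in vector cells from 858, 813.5 and 796 to 148, 175 and 196 (-2.16 ± 0.12), an interaction of 2.90 ± 0.17 (adjusted p = 5.93e-07). Gas6, a ligand of TAM receptor kinases, did the reverse: it fell from 668, 647 and 749 to 408.5, 387 and 445 (-0.71 ± 0.13) in shRNA cells and rose from 57.0, 54.7 and 79.2 to 227.5, 254 and 222 (1.68 ± 0.13) in vector cells, an interaction of -2.39 ± 0.19 (adjusted p = 4.43e-06). The media were apart in both constructs for these 2 genes, in opposite directions.

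Igf2 rose with the vector from 62.85, 12.4 and 44.4 to 1479, 1871 and 1575 (5.04 ± 0.27), against 2.05 ± 0.27 with the shRNA, an interaction of -2.99 ± 0.38 (adjusted p = 0.00023). Its other, dimmer probe set had an interaction of -0.83 that did not pass (adjusted p = 0.126). The medians over both were -1.91 and, for the adjusted p, 0.0632, which is no test of its own. The GM level of Igf2 was higher on every shRNA array and its DM level lower on every shRNA array than with the vector. Ankrd1, a titin-binding ankyrin repeat protein, went from 362, 393 and 317 to 649.7, 566 and 699.9 with the shRNA (0.81 ± 0.12) and from 272, 309 and 339 to 3723, 4195 and 3637 with the vector (3.59 ± 0.12), an interaction of -2.78 ± 0.17 (adjusted p = 5.93e-07). Stbd1, a glycogen-binding protein, went from 201, 233 and 206 to 385, 360.3 and 403 with the shRNA (0.80 ± 0.12) and from 149.7, 127 and 169.6 to 1350, 1429 and 1375 with the vector (3.10 ± 0.12), an interaction of -2.30 ± 0.16 (adjusted p = 2.47e-06). Both therefore rose in each construct and reached a far lower DM level with the shRNA. Plin4 stood apart in GM, where the shRNA arrays read 342, 319 and 306 and the vector arrays 61.4, 57.3 and 81.2, while in DM they read 34.4, 40.7 and 18.8 and 30.7, 31.8 and 63.6; the interaction was -2.34 ± 0.32 (adjusted p = 0.000384).

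Among those with a shallower fall, Fabp5, a fatty acid binding protein, went from 1206, 1116 and 1223 to 581.6, 653 and 569 with the shRNA (-0.96 ± 0.10) and from 1647, 1678 and 1591 to 197, 165 and 159 with the vector (-3.14 ± 0.10), an interaction of 2.18 ± 0.15 (adjusted p = 1.71e-06). Mcm5, a subunit of the same helicase as Mcm3, went from 744, 713 and 585 to 186, 229 and 287 (-1.49 ± 0.18) against 1078, 1108 and 925 to 78.96, 83.2 and 48.02 (-3.65 ± 0.18), an interaction of 2.16 ± 0.26 (adjusted p = 0.000126). Pole, a subunit of DNA polymerase epsilon, went from 135, 95.3 and 109.5 to 56.7, 62.1 and 69.7 (-0.71 ± 0.17) against 196, 154 and 184 to 8.26, 15.3 and 8.29 (-2.92 ± 0.17), an interaction of 2.21 ± 0.24 (adjusted p = 5.92e-05). Every DM array of Fabp5, Mcm5 and Pole was higher with the shRNA than with the vector, and every GM array was lower. Their interactions therefore hold a difference in GM as well as in DM. Fen1, the flap endonuclease of lagging strand synthesis, went from 946.5, 995 and 678 to 421, 445 and 517 with the shRNA and from 1676, 1716 and 1475 to 249, 50.3 and 231 with the vector, an interaction of 2.45 ± 0.53 (adjusted p = 0.00884). Its change in shRNA cells of -0.88 ± 0.37 did not pass on this probe set (adjusted p = 0.0823); without DM vector replicate 1 or 2 it passed, with adjusted p of 0.0495 and 0.000337. It also passed with the replicate block (-1.06, adjusted p = 0.0363), with only the 6 shRNA arrays (0.00086) and with a pseudocount of 50 (0.0409). Its other probe set fell by 1.66 (adjusted p = 6.13e-08). The median of the adjusted p over both was 0.0412, which is no test of its own.

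**Figure D5:**
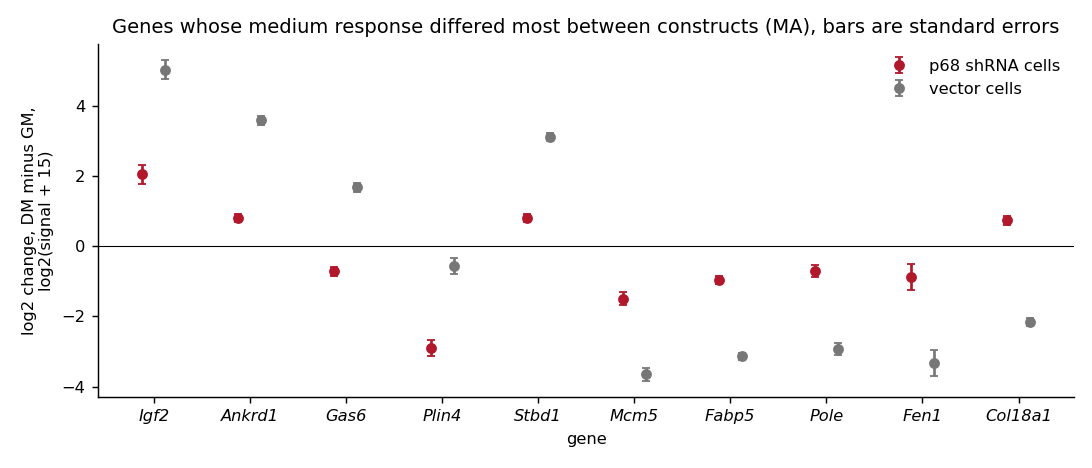
Log2 change from GM to DM on MA (vertical axis, points with standard errors, 3 arrays per group) in p68 shRNA cells (red) and vector cells (grey) for the 10 genes with the largest interactions among those with a group mean of at least 150. Col18a1 and Gas6 have opposite signs in the constructs, and Igf2, Ankrd1 and Stbd1 rise less with the shRNA.

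On MB the interaction passed for 75 probe sets (0.389%), 43 higher and 32 lower. Both counts were 0 when the spread was fitted with no trend. The higher count was 20 to 26 without DM shRNA replicate 2, GM shRNA replicate 2 or 3 or any 1 GM vector replicate. The lower count was 14 to 20 without any 1 DM shRNA replicate, GM shRNA replicate 2 or 3 or GM vector replicate 1 or 3. Bub1b, a kinase of the spindle checkpoint, went from 2890, 2373 and 2274 to 780.3, 889 and 1127 with the shRNA and from 2746, 2889 and 2550 to 96.1, 63.4 and 161.5 with the vector, an interaction of 3.15 ± 0.33 (adjusted p = 0.000173); its other MB probe set changed by -0.01 in shRNA cells. Aff3, a nuclear elongation factor subunit, went from 232, 129 and 137 to 481.5, 488 and 704 with the shRNA and from 13.8, 16.1 and 41.8 to 1016, 901 and 928 with the vector (-3.01 ± 0.42, adjusted p = 0.00256). The DM arrays of the constructs did not overlap for either gene. For Aff3 the GM arrays did not overlap as well, with every shRNA array above every vector array, while for Bub1b they overlapped. The Aff3 interaction therefore holds a difference in GM as well as in DM. The maintenance DNA methyltransferase Dnmt1 had an interaction of 2.66 ± 0.44 (adjusted p = 0.00753) and Gin1 of -3.31 ± 0.54 (adjusted p = 0.00753), although neither passed within shRNA cells; there Dnmt1 passed without GM shRNA replicate 3 (adjusted p = 0.0156) and Gin1 without DM shRNA replicate 2 (adjusted p = 0.0241). With the median over a gene's probe sets the Bub1b, Aff3 and Gin1 interactions did not pass. Of 2636 genes tested on both designs, 908 passed on MA and 209 on MB; the 135 that passed on both were 14.9% of the former and 64.6% of the latter, and 132 of them had the same direction.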

How the data were processed

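RNA of C2C12 cells was measured on 24 arrays of 2 designs, 3 arrays per construct, medium and design. The deposited values are linear intensity signals made by the authors with MAS5, per the submitters' processing notes; its version is not given in the sources used here, and detection calls were not used. The values themselves show that every array was scaled to a trimmed mean of about 150, with 2% taken off each end. Probe sets with signal of at least 30 on at least 3 of 12 arrays were kept, log2(signal + 15) was fitted with limma 3.58.1 in R 4.3.3 (4 group means, eBayes with trend, 8 residual degrees of freedom), and p-values were adjusted by Benjamini-Hochberg per design and contrast, with 0.05 as threshold. For a gene with several probe sets the brightest was used. Named genes were the 12 largest rises and falls on MA and 6 on MB, the 5 largest interactions each way on MA and 3 on MB, each past the threshold with a highest group mean of at least 150, 1 probe set per gene symbol and, for rises and falls, no overlap, up to 4 leading members of each list, and a fixed set of myogenic and targeted genes; others are said to be named after their values were seen. The members and lists were chosen with earlier results of these data known. An exact permutation test of 3 against 3 arrays cannot go below 0.1. The fit was tested on simulated data. Alternatives changed the pseudocount, filter, normalisation, spread model, samples and probe set rule, and left out each array. The other probe set rule took the median change and the median adjusted p over a gene's probe sets, with no new test.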

Additional observations from a re-analysis of the deposited data

Results flagged for a closer look

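For 75 named gene and design pairs, the change from GM to DM differed between p68 shRNA and vector cells by the interaction test in limma (adjusted p under 0.05). The values are log2 differences, the change in shRNA cells minus the change in vector cells, and no explanation was tested for them. Some genes were chosen after their values were seen: Atf4, Atp2a2, Col4a1, Ddit3, Fabp3, Hes1, Hk2, Masp1, Mki67, Myh8, Notch3 and Npnt.

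The values follow by the gene lists. Lower values were found in the thick filament list for Myh8 (-2.27) and, on MB, Mybpc2 (-3.59), in the Z-disc list for Actn2 (-1.81), Ankrd1 (-2.78) and Ankrd2 (-1.25), in excitation-contraction coupling for Atp2a1 (-1.47), Atp2a2 (-1.30), Cacna1s (-1.52) and Casq2 (-0.76), and in the sarcolemma list for Cav3 (-0.82). In the energy buffer list they were Cox6a2 (-1.89), Cox8b (-1.92), Fabp3 (-2.19) and Lpl (-1.89), in glycogen and glycolysis Hk2 (-1.48), Pfkm (-1.13), Pgam2 (-1.37) and Pygm (-2.12), and in oxidative phosphorylation Ndufs4 (-1.55). Lpl is also an adipocyte marker, as is Plin4 (-2.34); both fell in shRNA cells, by 1.72 and 2.90, while the other genes of the energy and glycogen lists named here had changes above 0. In the unfolded protein and ATF4 list the values were Atf3 (-1.79), Atf4 (-0.66), Ddit3 (-2.26), Herpud1 (-0.63) and Trib3 (-1.01). The p53 target Gadd45a (-1.71), the interferon response gene Igtp (-1.62), the DEAD-box helicase Eif4a2 (-1.26) and the smooth muscle marker Cnn1 (-0.92) were lower too.

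Higher values were found in DNA replication for Fen1 (2.45), Mcm3 (1.31), Mcm5 (2.16), Pole (2.21) and Tk1 (2.09), in mitosis for Cdc20 (1.73), Cenpa (1.14), Kif2c (1.93), Mki67 (1.75), Plk1 (1.68) and, on MB, Bub1b (3.15), and among G1 cyclins and E2F for Ccnd1 (1.90), Ccne1 (1.20) and E2f1 (0.97). The cholesterol enzymes Msmo1 (1.03) and Mvd (1.11), the Notch pathway genes Hes1 (1.498), Heyl (1.11), Notch1 (0.67) and Notch3 (1.31), and Hes6 (0.72) of the list of inhibitors of myogenic factors were higher as well. Hes1 and Notch3 rose in shRNA cells (0.92 and 0.88) and fell in vector cells (-0.58 and -0.43).

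Other lists held values of both signs. Among myogenic transcription factors they were Mef2c (-1.96) and Pax7 (0.85), in adhesion and fusion Npnt (-1.25) and Cdh15 (1.26), and in the insulin-like growth factor axis Igf2 (-2.99) and Igfbp2 (1.84). Among collagens and matrix they were Thbs1 (-1.05), Col18a1 (2.904), Col4a1 (1.03) and Mgp (1.17), and among matrix proteases and inhibitors Adamts1 (-1.06) and Timp1 (1.06). Genes in none of the lists were higher for Aqp1 (1.03), Fabp5 (2.18), Kcnn4 (1.90), Tm4sf1 (1.57) and, on MB, Cdh26 (2.99), Dnmt1 (2.66) and Dynap (1.60). They were lower for Gas6 (-2.39), Masp1 (-1.22), Sfrp2 (-1.79), Stbd1 (-2.30) and, on MB, Aff3 (-3.01) and Gin1 (-3.31).

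Leaving out single arrays ended the call for Ankrd2, Atf4, Casq2, Cav3, Cdh26, Cnn1, E2f1, Herpud1, Msmo1, Mybpc2, Notch1 and Trib3, and each of the MB calls was lost with no trend in the spread. With the median over a gene's probe sets, Aff3, Atf4, Atp2a2, Bub1b, Col4a1, E2f1, Gin1, Igf2, Lpl, Masp1, Notch1 and Trib3 did not pass. Probe sets of Atp2a2, Ddit3 and Fabp3 on MB had interactions of 0.36, -0.002 and 0.17, which did not pass. Groups of 3 arrays are too small for a test of single outlying arrays.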

How the results depend on the processing

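The direction and call of named genes in shRNA cells on MA were kept in 3530 gene and setting pairs, lost in 76, gained in 15 and reversed in 1, which was Psmc4 at -0.15 with the median over its probe sets. In the limma fit the Psmc4 probe sets changed by 0.47 (adjusted p = 0.00265) and -0.77 (adjusted p = 0.17). The Psmc4 median is therefore no tested reversal. For the MA interaction the counts were 3305, 90, 52 and 2, and the reversals were Tnni2 at -0.57 with a pseudocount of 50 and Tpm3 at -0.069 with the median over its probe sets. The Tpm3 median came from a probe set whose own interaction had an adjusted p of 0.913, so it is no tested reversal. Leaving out each array gave 1819 to 2792 rises and 2054 to 2894 falls on MA, and 317 to 495 rises and 292 to 577 falls on MB. It gave 510 to 1097 higher and 403 to 953 lower interactions on MA, and 20 to 53 and 14 to 30 on MB. With no trend in the spread, the MB falls were 231 and the MB interactions 0 in each direction; with quantile normalisation the higher MB interactions were 68. Arrays of the same number correlated in their deviations from the group means at -0.05 and 0.06 for the shRNA and 0.166 and 0.293 for the vector on MA, and at -0.04 to 0.02 on MB, so not every pair exceeded 0.1 and the numbers were not taken as pairing. With the replicate block the rises and falls were 2215 and 2305 on MA and 457 and 485 on MB, and the interactions 781 and 585 on MA and 35 and 27 on MB. With only the 6 shRNA arrays of a design fitted, the rises and falls were 2749 and 2816 on MA and 500 and 563 on MB. The cause of these differences was not tested. Low signals and the larger spread on MB limit what could be detected.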
